A study of Mus musculus with 2 samples.

Results

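Histone genes encode the proteins around which DNA is wound. The genes described here were taken by symbol: every gene named H1f, H2ac, H2bc, H3c or H4c followed by a number was matched, and a gene was kept if it had at least 10 unique molecular identifiers (UMIs, the count of captured transcript molecules) over the 8 samples. The pattern matched 69 of 32432 genes and 60 were kept, of which 8 encode the linker histone H1, 15 encode H2A, 15 H2B, 11 H3 and 11 H4. At the threshold, H2ac12 was kept with 47 UMIs and H1f6 was left out with 4. H2ac24 had the most UMIs of the kept genes (87874), followed by H1f5 (81096), H2ac8 (52401), H1f4 (38831) and H4c4 (30441).

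As background, H2A, H2B, H3 and H4 form the nucleosome core and H1 binds the DNA between nucleosomes. Most of these genes are replication-dependent: they are clustered, transcribed while DNA is copied, and their messenger RNAs typically end in a conserved stem-loop in place of a poly(A) tail, bound by the stem-loop binding protein Slbp. H1f0 and H1f10 are linker histones that are also made outside DNA replication, and H1f0 is known for its accumulation in non-dividing, differentiated cells.

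The study profiled leukocytes from B16-F10 mouse melanomas by droplet sequencing of 3′ transcript ends. Male mice of 8 to 12 weeks carried a tamoxifen-inducible Cre recombinase at the Rosa26 locus (R26CreERT2-ki/wt) and either Trex1 fl/fl (Trex1 iKO here) or Trex1 wt/fl (control here). Trex1 encodes a DNA exonuclease. Both genotypes received 1000 B16-F10 cells with Matrigel in the skin of both legs, with 1 mg tamoxifen daily for 3 days beginning on day 5; the tumours were harvested at day 14. The controls therefore carried the Cre, the tamoxifen and 1 floxed allele, and are not wild type. Live CD45-positive cells were sorted, tagged with hashtag antibodies and run as 1 pool per genotype, with 4 hashtagged samples each. The inducible Cre is not limited to one cell type by the labels. Genotype and pool cannot be told apart, and the labels do not say that each hashtagged sample is 1 mouse, so the p-values measure only the spread between these samples.

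The samples held 17111065 to 96457227 UMIs, and the median per barcode was 12535.5 to 14221 in Trex1 iKO samples and 5794 to 11490 in control samples. After filters 22052 of 23731 barcodes were kept. No barcode was shared within a pool, and 45 barcodes occurred in both pools. Trex1 had 0 UMIs in each Trex1 iKO sample and 0, 2, 0 and 0 UMIs in control samples 1 to 4, so these 3′ counts did not check the deletion. Cells were assigned to types by marker gates on UMIs. The largest gates were monocyte/macrophage (7959 cells) and CD8 T (4986 cells), so the sort held many cells that are not lymphocytes although the label names lymphocytes. The other gates were neutrophil (1048), B (825), conventional CD4 T (630), regulatory T or Treg (502), mature dendritic (468), type 1 dendritic or cDC1 (262), type 2 dendritic (236), NK (216) and plasmacytoid dendritic (141). Trex1 iKO samples 1 and 2 held 1190 and 2322 of the CD8 T cells.

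Sequence at the messenger's end is shown first because it bears on which histone transcripts a poly(A)-primed library can hold. The histone stem-loop pattern was searched as 16 bases, with some bases of both arms free to vary and pairing not required. All transcripts of a gene in the GENCODE M21 annotation (build GRCm38) were searched. A match was found for 39 of the 60 genes and for 95 of 55450 annotated genes (0.171%). In 20 of the 39 the transcript ended under 60 bases after the loop, and in 19 it ran on for 60 bases or more. In 21 genes, among them H1f0, H1f10, H1f5 and H2bc4, no loop was found in the annotation. Some of these annotated transcripts are short (312 bases in H4c12, 381 in H2bc15 and 393 in H2ac22) and may stop before the messenger's end. A missing match therefore does not show that the messenger lacks a loop. Reads were assigned by the authors on GRCm39, so transcript ends and unique words from the older annotation may differ from those used for the counts. The lines below run 5′ to 3′ as DNA letters, and capitals mark the stem-loop.
H2ac24: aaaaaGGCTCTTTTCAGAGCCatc
H3c2: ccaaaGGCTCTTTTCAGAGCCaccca
H3c3: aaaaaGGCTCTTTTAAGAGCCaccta
H4c4: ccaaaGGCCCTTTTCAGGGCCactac
H1f4: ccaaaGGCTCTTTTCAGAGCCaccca
H1f2: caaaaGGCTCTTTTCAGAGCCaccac
H4c9: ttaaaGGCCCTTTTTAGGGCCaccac
The annotated transcript stopped 3 bases after the loop in H2ac24 and 51 bases after it in H3c2, and ran on for 840 bases in H1f2 and 1153 bases in H1f4. Many copies are nearly identical at this end. Over the last 300 transcript bases, none of the 60-base words of H2ac24, H1f4 or H2ac18 was unique to the gene, against 100% for H1f0, H1f2, H1f5, H1f10, H2bc4, H4c4 and H4c9. Only 24 of the 60 genes had at least 80% unique words, so the assignment of reads among copies is uncertain for the others.

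Promoters were compared with the same motif search. RefSeq promoters of build GRCm38.p6 (250 bases before to 50 after the start) were matched by symbol for 54 of the 60 genes, of which 45 lie on chromosome 13, 6 on chromosome 3, 2 on chromosome 6 and 1 on chromosome 15. The files themselves use GRCm39. The motifs were read on both strands. CCAAT was found in 45 of 54 promoters (83.33%; all promoters 37.92%), including each of the 15 H2A, 12 H2B and 9 H3 promoters and 3 of 10 H4 promoters. TATAAA was found in 31 of 54 (57.41%; all promoters 14.16%), and the octamer ATTTGCAT in 10 (18.52%; all promoters 1.75%), 5 of them H2A and 5 H2B. TTTCCCGC was found in 1 and TTTGGCGC in 0, against 1.11% and 0.54% of all promoters. The 120 bases before the start are printed for H3c2 and H1f5, which differed most between cycling and non-cycling cells in their families, and for H1f0, which differed least. Capitals mark CCAAT, its reverse complement ATTGG, and TATAAA.
H3c2, chr13:23752225-23752344, plus strand: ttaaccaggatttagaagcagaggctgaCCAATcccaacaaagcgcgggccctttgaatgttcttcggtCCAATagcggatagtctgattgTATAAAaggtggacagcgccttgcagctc
H1f5, chr13:21780626-21780745, minus strand: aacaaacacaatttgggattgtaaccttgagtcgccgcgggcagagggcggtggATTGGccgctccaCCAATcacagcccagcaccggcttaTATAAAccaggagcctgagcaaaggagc
H1f0, chr15:79028092-79028211, plus strand: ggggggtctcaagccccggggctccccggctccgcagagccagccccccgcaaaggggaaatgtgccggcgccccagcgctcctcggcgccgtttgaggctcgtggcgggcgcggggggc
A match is a description of letters, not of a bound site.

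Histone transcripts were higher in cycling than in non-cycling cells. A cell was called cycling if it held at least 2 UMIs of Mki67 and Top2a together, both genes of dividing cells, and non-cycling if it held 0. By this rule 44.54% of CD8 T, 30.28% of Treg, 12.06% of conventional CD4 T and 4.8% of monocyte/macrophage cells were cycling. In B cells it was 1.82% and in neutrophils 1.24%. The cut is a fixed count, and depth differed between gates. Median UMIs per cell were 13527 in CD8 T, 14556 in monocyte/macrophage, 7815 in Treg, 5681 in conventional CD4 T, 4322 in neutrophils and 4025 in B cells. Non-cycling profiles of shallow gates may therefore hold some cycling cells, and the part of depth in these shares was not tested. Levels are given as CPM, the UMIs of a gene per 1000000 UMIs of the summed cells. In cycling CD8 T cells the 60 genes summed to 5455, 6250, 4240 and 4850 CPM in the Trex1 iKO samples, numbered 1 to 4, and to 3893, 3838, 4640 and 4490 CPM in control samples 1 to 4. In non-cycling CD8 T cells the sums were 413, 383, 275 and 337 CPM and 403, 297, 280 and 418 CPM. Every cycling value lay above every non-cycling value, and within each state the genotypes overlapped.

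Monocyte/macrophage cells showed the same order at a lower level. Their cycling cells summed to 1012, 941, 1177 and 1680 CPM in Trex1 iKO samples and 1028, 1728, 1159 and 2006 CPM in control samples. Their non-cycling cells summed to 236, 239, 219 and 237 CPM against 282, 426, 309 and 318 CPM, with each Trex1 iKO value below each control value. Cycling Treg profiles, available in 3 samples, held 6219, 5436 and 4077 CPM, near the CD8 T values. Non-cycling neutrophils were higher than the other non-cycling gates in most samples, with 381, 985, 415 and 832 CPM in Trex1 iKO and 698, 1137, 904 and 964 CPM in control samples; Trex1 iKO samples 1 and 3 were the low ones.

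**Figure D1:**
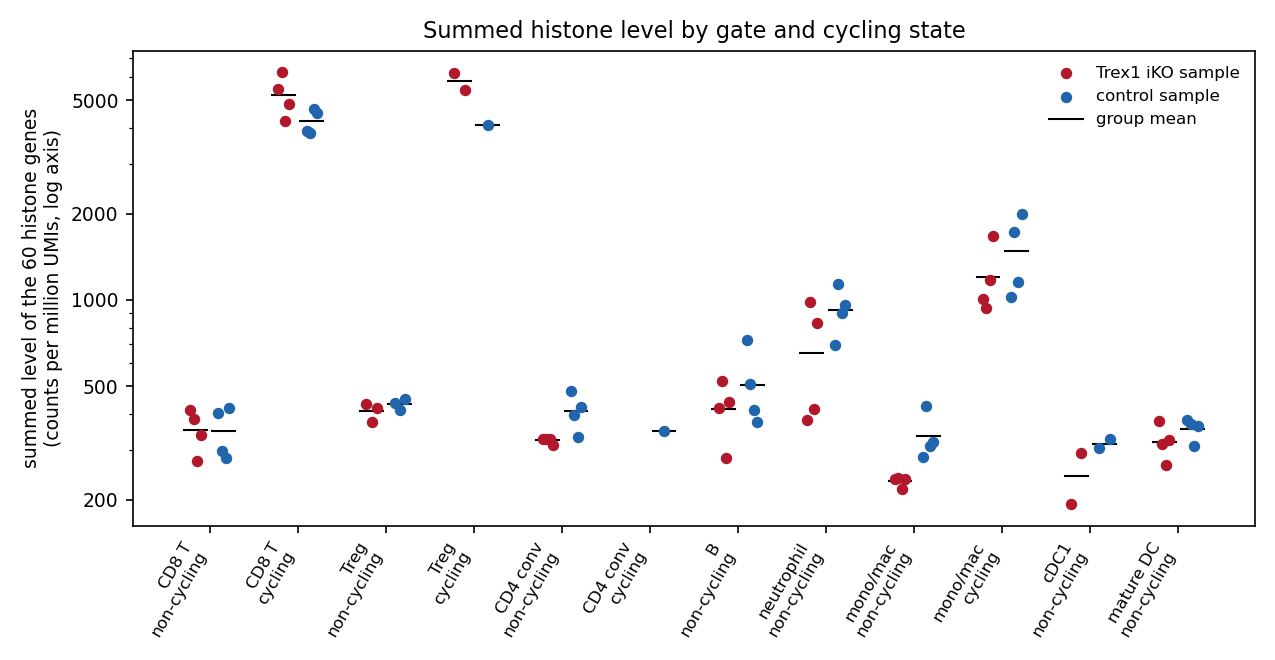
Summed level of the 60 histone genes (CPM, log axis) by gate and cycling state; each point is 1 hashtagged sample with at least 20 cells in that profile, coloured by genotype, and black lines are group means. Cycling CD8 T profiles lie between 3838 and 6250, and non-cycling ones between 275 and 418.

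In CD8 T cells, 42 of the 60 genes passed the filter on low counts in the cycling comparison, and 42 of 42 were higher in cycling cells (25.7% of all genes tested were higher; edgeR quasi-likelihood test, hashtagged sample as block, Benjamini-Hochberg adjusted over all genes tested). Their median log2 fold change was 3.28, and that of all genes tested was -0.03. By family, 7 of 7 H1 genes (median 2.81), 11 of 11 H2A (4.27), 11 of 11 H2B (3.40), 8 of 8 H3 (3.41) and 5 of 5 H4 genes (2.87) rose. A gene that is near 0 outside the cycle can pass the filter only through cycling cells. Such a gene had to differ here, so 42 of 42 describes the tested genes and not all 60. In the genotype fits, 39 histone genes passed with cycling and 13 with non-cycling CD8 T cells alone.

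Within the H1 family the range was wide. H1f5, a replication-dependent linker histone, lay between 746 and 1181 CPM in cycling and between 7.99 and 17.6 CPM in non-cycling CD8 T cells, a log2 fold change of 6.25 ± 0.13 (SE). H1f0 lay between 16 and 47.9 CPM in cycling and between 6.08 and 23.3 CPM in non-cycling cells, which overlap, and its difference was the smallest of the 42, 0.46 ± 0.13 (edgeR adjusted p = 0.00617). H1f4 rose by 2.81 ± 0.12, H1f10 by 2.32 ± 0.30 and H1f2 by 1.18 ± 0.13. The H1 genes thus spread from a level that overlapped between the states to one that differed by more than 6 on the log2 scale.

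The core histones were spread as widely. H3c2 lay between 16.98 and 32.7 CPM in cycling CD8 T cells and was at 0 in 6 of 8 non-cycling profiles, with 0.245 and 0.117 CPM in the other two. Its fitted log2 fold change, 7.68 ± 0.29, therefore depends on the prior count of the fit. H2ac4 rose by 6.27 ± 0.15, H2ac10 by 5.78 ± 0.21, H2ac24 by 5.75 ± 0.16, H2ac22 by 5.43 ± 0.31 and H2ac8 by 5.27 ± 0.12. Among H2B genes the ends were H2bc15 (5.09 ± 0.24) and H2bc4 (1.02 ± 0.16, edgeR adjusted p = 2.94e-05). H3c3 rose by 4.88 ± 0.19 and H4c4 by 2.87 ± 0.11.

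The annotated transcript end did not order these differences. The 12 tested genes that ended near the stem-loop had a median log2 fold change of 3.48, the 16 that ran past it 3.00, and the 14 without a loop 3.67. The 3 ranges overlapped. The class without a loop includes genes with short annotated transcripts, such as H2bc15, so the part of the messenger's true end was not tested.

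In monocyte/macrophage cells 47 of the 60 genes passed the filter; 42 were higher in cycling cells and 0 lower (12.4% of all genes tested were higher), with a median log2 fold change of 2.31. H3c2 rose by 5.28 ± 0.42, H2ac10 by 4.69 ± 0.46, H3c3 by 4.68 ± 0.18, H1f5 by 4.41 ± 0.15, H2ac24 by 3.96 ± 0.16, H4c4 by 2.02 ± 0.21, H1f4 by 1.42 ± 0.14, H2bc4 by 1.23 ± 0.22 and H1f2 by 0.79 ± 0.18. The 5 genes that did not pass were H1f0 (-0.25 ± 0.11, adjusted p = 0.113), H2ac18 (0.64), H3c13 (1.28), H2bc21 (0.46) and H4c14 (0.45). H1f0 lay between 45.9 and 79.8 CPM in cycling and between 49.2 and 88.0 CPM in non-cycling macrophage profiles, so the states overlapped. Of 40 genes tested in both gates, 37 were higher in cycling cells of both. The limit of the filter holds for macrophages too, so these counts describe the tested genes. In the macrophage genotype fits, 22 histone genes passed with cycling and 28 with non-cycling cells alone.

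**Figure D2:**
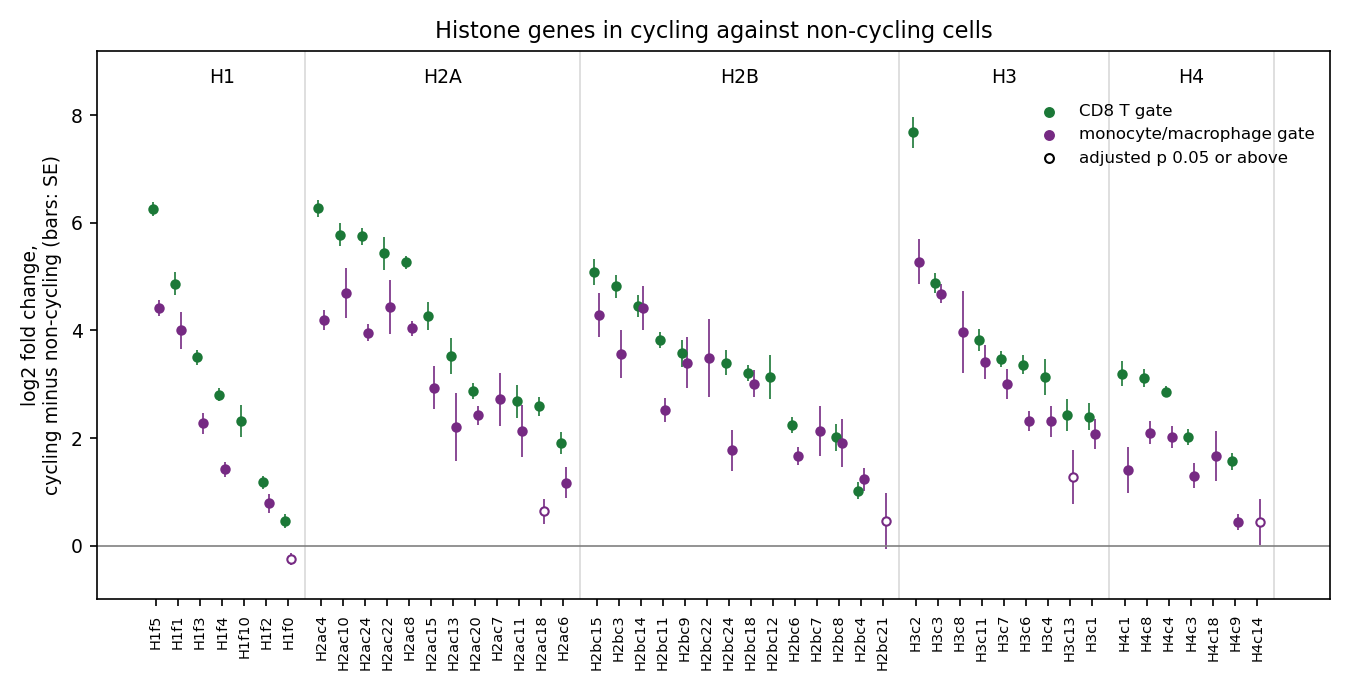
Log2 fold change of each tested histone gene, cycling minus non-cycling cells, by family, in the CD8 T gate (green) and the monocyte/macrophage gate (purple); bars are standard errors and open points had an adjusted p of 0.05 or above. H3c2 and H1f5 lie highest in H3 and H1, and H1f0 lies lowest.

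Lists of genes that work with histones moved less evenly. Of all genes tested, 25.7% rose and 28.3% fell in cycling CD8 T cells. In monocyte/macrophage cells 12.4% rose and 14.0% fell. Of the histone variant genes that are not tied to replication, 5 of 8 tested rose in cycling CD8 T cells and 0 fell: H2ax, a variant phosphorylated at DNA breaks (2.72), Cenpa, the centromeric H3 (1.88), H2az1 (1.45), H2az2 (1.11) and H3f3b (0.17). In monocyte/macrophage cells 4 of 8 rose (H2ax 1.70, H2az2 1.46, Cenpa 1.00, H2az1 0.89) and 3 fell, among them H3f3b (-0.37) and H3f3a (-0.35), which encode H3.3. Among genes for histone messenger synthesis and 3′ processing, 11 of 14 rose and 1 fell in CD8 T cells, and 9 rose and 0 fell in macrophages. The largest in CD8 T cells were Ccne2 (3.50) and Ccne1 (1.85), cyclins of S phase entry, E2f1 (2.65) and Cdk2 (1.88), while Slbp itself differed by 0.89. Of 15 histone chaperones, which escort histones to DNA, 9 rose and 2 fell in CD8 T cells (Asf1b 3.90, Chaf1a 2.82, Hirip3 2.26, Hjurp 2.17), and 10 rose and 1 fell in macrophages.

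The next comparison placed cells along the cycle by fixed gene lists. A cell with at least 5 UMIs of an S list of 26 genes and a G2M list of 27 genes together was put on the side with more UMIs. Too few samples held 20 cells on both sides among cycling cells of 1 gate, so cells of any Mki67 and Top2a level were used. Many of these cells were not cycling by the rule above. The sides within a gate therefore do not set S against G2M phase among cycling cells alone. On this measure histone transcripts were lower on the S side. In CD8 T cells 44 of 44 tested genes were lower (10.4% of all genes tested were lower), with a median log2 difference of -1.63, from -2.09 for H1f10 to -0.31 for H3c1. In monocyte/macrophage cells 27 of 38 were lower (8.77% of all genes tested were lower) and 0 higher. Among all kept cycling cells of any gate, an analysis added after seeing the data, 51 of 52 were lower (10.3% of all genes tested were lower), and H3c1, the exception, differed by -0.05.

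The values show how large the shift was. H1f5 lay between 341 and 609 CPM on the S side and between 603 and 1612 CPM on the G2M side of CD8 T cells, which overlap, with a log2 difference of -1.28 ± 0.10. H4c4 lay between 89.6 and 163 CPM on the S side and between 272 and 573 CPM on the G2M side, without overlap, with a difference of -1.65 ± 0.08. H3c3 differed by -2.02 ± 0.10, H2bc4 by -1.64 ± 0.11, H2ac24 by -1.59 ± 0.07 and H1f2 by -1.49 ± 0.08. H1f0 differed by -1.44 ± 0.16 in CD8 T cells and by -0.06 ± 0.11 in macrophages, where it did not pass (edgeR adjusted p = 0.77).

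The S side also held fewer cells with high Mki67 and Top2a. With CD8 T cells binned by the S list's share of the 2 lists' UMIs, the summed level of the 60 genes averaged 6694 CPM at a share of 0 to 20% (3 samples), 8604 CPM at 20 to 40% (2 samples), 5852 CPM at 40 to 60% (4 samples), 2829 CPM at 60 to 80% (7 samples) and 544.5 CPM at 80 to 100% (8 samples). In the same bins the median Mki67 plus Top2a level was 1797, 1571, 1118, 533.2 and 141.3 CPM. The median share of cycling cells was 87.33, 78.83, 61.73, 55.5 and 34.46%. The histone level and both of these measures were lowest in the bin of highest S share. Their parts in the result were not tested apart. In macrophages the 5 averages were 1075, 834.4, 861.1, 400.4 and 230.0 CPM, and the samples differed widely in the first 3 bins. The median shares of cycling cells there were 16.24, 15.36, 7.867, 8.095 and 7.019%. Most macrophages used were thus not cycling by the rule above.

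**Figure D3:**
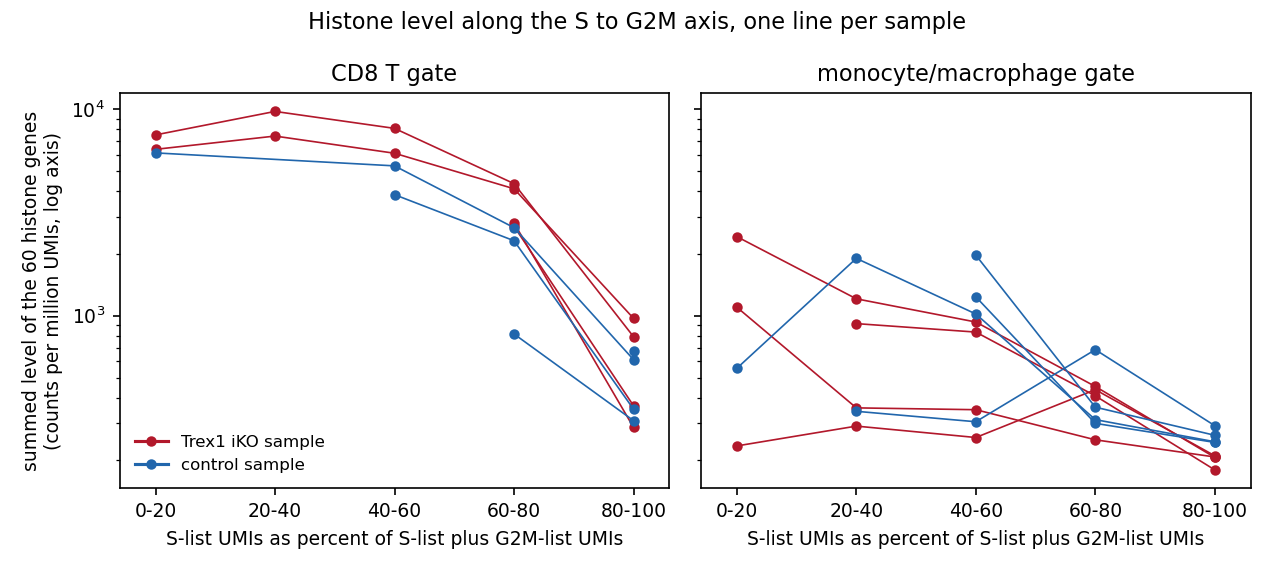
Summed level of the 60 histone genes (CPM, log axis) against the share of S-list UMIs among S-list and G2M-list UMIs, in 5 bins, for the CD8 T and monocyte/macrophage gates; each line is 1 sample and points need at least 20 cells. CD8 T lines fall to between 286.9 and 969.9 at the highest S share.

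On the same S-side contrast, the lists that defined the sides moved as the definition requires, and are not results. Of all genes tested there in CD8 T cells, 12.9% were higher and 10.4% lower on the S side. Of the processing list 6 of 14 were higher on the S side of CD8 T cells, E2f1 (1.82), Ccne2 (1.19) and Slbp (0.27) among them, and 0 lower. Of the variants 5 of 8 were lower, led by H2ax (-2.36) and Cenpa (-1.90), and of the chaperones 2 were higher and 2 lower of 15.

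Between cell types, histone transcripts as a group were highest in CD8 T and regulatory T cells. Each gate's profiles, 1 per sample, were set against the mean of the other gates in 1 fit with the sample as block, so all these contrasts share the same profiles. Of the 60 genes 35 passed the filter, and only 13 did so when non-cycling cells alone were used. A gene that passed only through the profiles where it is high had to differ there, so the counts for CD8 T and Treg cells describe the tested genes and not all 60. In CD8 T cells 31 were higher (38.8% of all genes tested were higher) and 2 lower (30.5% lower), led by H2bc15 (3.16), H1f5 (3.16), H2ac10 (3.10), H2ac4 (3.03) and H3c3 (3.03), with H1f0 (-0.87) and H2bc4 (-0.80) as the 2 lower. In Treg cells 29 were higher (28.9%) and H2bc4 was lower (-0.99; 23.5%), led by H2bc11 (3.00) and H2bc15 (3.00). Conventional CD4 T cells had 8 higher (25.4%) and 2 lower (21.5%), shares near or below the background, and the 10 calls fell to 5 without control 1, 6 without Trex1 iKO 2 and 3 without Trex1 iKO 4. In monocyte/macrophage cells 34 were lower (31.8%) and H1f0 alone was higher (0.83; 40.6%).

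In the other gates most of the 35 genes also lay below the mean of the other gates, with median log2 differences of -1.26 in neutrophils, -1.06 in mature dendritic cells, -0.97 in B cells and -0.41 in cDC1. Neutrophils had 8 higher (34.3%) and 16 lower (40.1%), led by H2bc4 (4.47), H4c9 (3.04), H2ac18 (2.85), H2bc6 (2.50) and H1f2 (2.20). Mature dendritic cells had H1f10 (4.42) and H1f0 (1.62) higher (32.0%) and 18 lower (30.3%). B cells had 8 lower (27.7%), led by H1f0 (-3.49), and cDC1 had 8 lower (27.6%), led by H2ac18 (-1.76); neither had any higher. The cDC1 count fell to 3 without Trex1 iKO 1 and to 5 without Trex1 iKO 2. For B cells and cDC1 the share of tested histone genes called, 22.86%, was below the background (55.6% and 56.6%). It was also below the background in neutrophils (68.57% against 74.3%) and in mature dendritic cells (57.14% against 62.2%).

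Because the gates differ in their share of cycling cells, the contrasts were repeated on non-cycling cells, an analysis added after seeing the data, in which 13 of the 60 genes passed the filter. Fewer of them were then called higher in T cells. The share of the 13 called in either direction was below that of all genes tested in each T cell gate. It was 38.46% against 59.9% in CD8 T, 30.77% against 33.8% in Treg and 23.08% against 41.4% in conventional CD4 T cells. On these 13 genes CD8 T cells had 9 higher with all cells and 2 with non-cycling cells, and Treg cells had 9 and 1. In non-cycling CD8 T cells H2ac20 (1.15) and H4c4 (0.74) were higher (33.2% of all genes tested were higher), and H2bc4 (-1.39), H1f0 (-1.05) and H2ac18 (-0.97) were lower (26.7%). Non-cycling Treg cells had H1f0 higher (1.37; 17.7%) and 3 lower (16%), and conventional CD4 T cells had H4c4 higher (1.26; 22.0%) and H2bc4 (-2.12) and H4c9 (-1.04) lower (19.4%). The Treg count fell to 2 without the sample block, with gate thresholds raised by 1 UMI, and without any 1 of 6 samples (Trex1 iKO 3 and 4 and control 1 to 4).

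In the remaining gates the share of the 13 genes called in non-cycling cells lay near that of all genes tested. It was 61.54% against 54.4% in B cells and 69.23% against 74.1% in neutrophils. In monocyte/macrophage cells it was 76.92% against 74.5%, and in mature dendritic cells 61.54% against 63.6%. B cells had 7 genes higher (27.5%), among them H2ac20 (1.39), H2ac8 (1.24), H4c8 (1.13), H2ac24 (1.05) and H1f4 (1.02), and H1f0 lower (-3.38; 26.9%); none of the 13 was higher in B cells when all cells were used. Neutrophils had 7 higher (35.2%) and 2 lower (38.9%), led by H2bc4 (4.79), H4c9 (3.58), H2ac18 (3.34), H2bc6 (3.00) and H1f2 (2.40). Monocyte/macrophage cells had H1f0 higher (0.99; 41.6%) and 9 lower (32.9%). Mature dendritic cells had H1f0 (1.80) and H2bc4 (0.75) higher (32.7%) and 6 lower (30.9%), a count that ranged from 3 to 10 calls in all when single samples were left out (3 without control 3, 4 without Trex1 iKO 4, 5 without Trex1 iKO 3 or control 4).

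**Figure D4:**
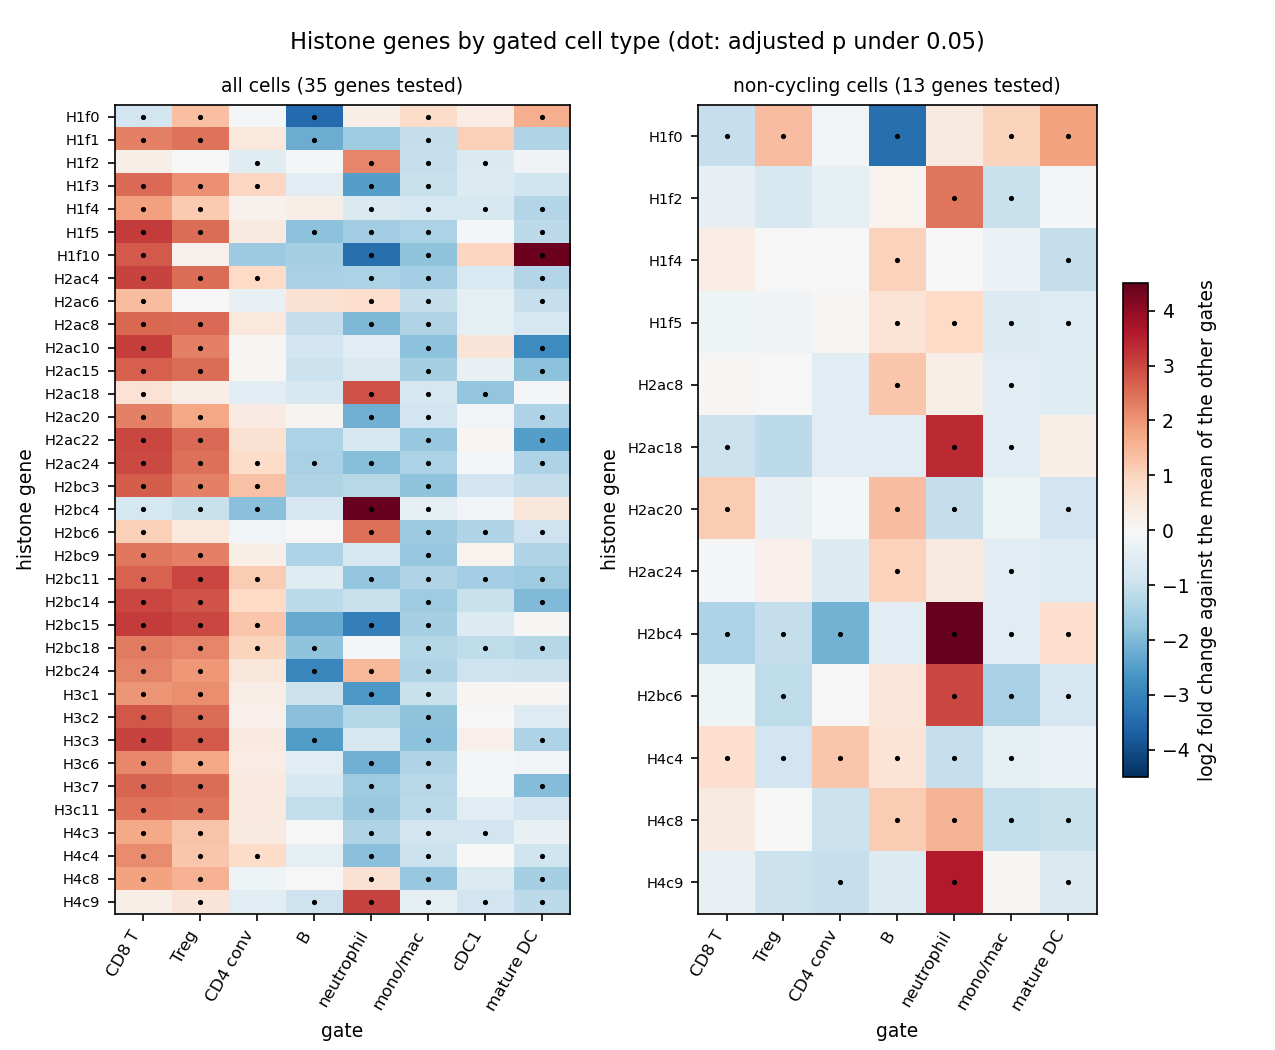
Log2 fold change of each tested histone gene in a gate against the mean of the other gates, for all cells (35 genes) and non-cycling cells (13 genes); colour gives the difference and a dot an adjusted p under 0.05. H2bc4 in neutrophils (4.47 and 4.79) and H1f0 in B cells (-3.49 and -3.38) are far from 0 in both panels, and the CD8 T and Treg columns are mostly high only with all cells.

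The levels behind the single genes were as follows. H2bc4 in neutrophils was 155.9, 378.8, 171.8 and 378.4 CPM in the Trex1 iKO samples and 236.8, 300.3, 385.2 and 305.1 CPM in control samples, against medians of 8.76 to 34.1 CPM in the other 7 gates. Each neutrophil value was above every value of the other gates, of which the highest was 51.98 CPM in mature dendritic cells. H1f2, a linker histone with a transcript that runs past its loop, had a neutrophil median of 143.8 CPM, with the low values in Trex1 iKO samples 1 (47.4) and 3 (54.7) inside the range of B cells.

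H1f0 also differed widely across gates. From the highest, its medians over samples were 111.5 CPM in Treg, 89.05 in mature dendritic, 59.39 in monocyte/macrophage, 54.59 in cDC1, 46.87 in conventional CD4 T, 26.3 in CD8 T, 9.954 in neutrophils and 5.98 in B cells. In B cells the 8 values ran from 0 to 9.97 CPM and 3 were at 0. Treg (56.8 to 132.3) and mature dendritic cells (74.6 to 131.7) overlapped, as did macrophages, cDC1 and conventional CD4 T cells. Neutrophils were below 20 CPM in 6 samples and at 111.9 and 75.5 CPM in control samples 2 and 4.

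H1f10 in mature dendritic cells was 60.72, 0, 10.88 and 29.89 CPM in Trex1 iKO samples and 11.71, 24.12, 18.66 and 59.93 CPM in control samples. The next gate, CD8 T, had a median of 10.41 CPM with all 8 samples above 7, and the conventional CD4 T, Treg, B and neutrophil gates had medians of 0. Mature dendritic cells and CD8 T cells overlapped in their lowest samples.

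The make-up of the histone UMIs differed with the state and the gate. In cycling CD8 T cells H2A genes gave 36.8% ± 5.92 (SD, n = 8 samples) and H1 genes 34.1% ± 4.13 of histone UMIs, with H1f5 at 20.4% ± 2.69. In non-cycling CD8 T cells H1 gave 38.2% ± 2.61 and H4 22.8% ± 2.56, and H1f5 only 3.59% ± 1.02. In neutrophils H2bc4 alone gave 38.2% ± 6.78, and in mature dendritic cells H1f0 gave 23.8% ± 9.05. These are shares of UMIs at 3′ ends and do not rank the messengers' abundance.

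The design compares Trex1 iKO with control samples, and few histone transcripts differed between them. In non-cycling monocyte/macrophage cells 28 of the 60 genes passed the filter; 5 were lower in Trex1 iKO and 0 higher (6.65% of all genes tested were lower; 17.86% of the 28). The 5 were H1f0, H1f2, H1f3, H1f4 and H1f5, which were also the 5 H1 genes that passed the filter.

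Values of the 5 linker histones are given per sample, Trex1 iKO 1 to 4 and then control 1 to 4. H1f2 was 17.83, 19.15, 18.05 and 20.88 CPM against 24.58, 61.52, 34.02 and 33.41 CPM (log2 difference -1.05 ± 0.24, edgeR adjusted p = 0.0216). H1f4 was 29.56, 30.54, 18.76 and 22.23 CPM against 40.72, 61.72, 36.53 and 42.99 CPM (-0.87 ± 0.21, edgeR adjusted p = 0.0271). In both genes every Trex1 iKO value was below every control value, and control sample 2 was the highest. H1f0 was 56.28, 49.2, 58.38 and 60.17 CPM against 61.3, 87.97, 80.44 and 77.71 CPM (-0.50 ± 0.11, edgeR adjusted p = 0.0208). H1f5 was 7.31, 8.11, 4.94 and 7.15 CPM against 8.86, 13.74, 12.70 and 12.43 CPM (-0.80 ± 0.18, adjusted p = 0.0219). H1f3 was 2.40, 2.13, 1.97 and 2.90 CPM against 4.43, 8.41, 3.76 and 5.59 CPM (-1.25 ± 0.26, adjusted p = 0.0152). The genotypes did not overlap for these 3 genes either, though control sample 1 lay close to the Trex1 iKO samples for H1f0 and H1f5.

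These calls rested on few samples. The count fell from 5 to 2 without control 2, to 3 without control 4, and to 2 without Trex1 iKO 1 or Trex1 iKO 2, while the direction of each of the 5 genes held in all alternatives run. Single calls were lost for H1f3 without Trex1 iKO 2, for H1f2 without Trex1 iKO 1 or 2, for H1f4 without control 2, control 4 or Trex1 iKO 4, for H1f5 without control 2, control 4 or Trex1 iKO 1 or with thinned cells, and for H1f0 without control 2, control 4, Trex1 iKO 1 or Trex1 iKO 2. Other measures also separated the genotypes without overlap in these profiles: the summed Cd8a and Cd8b1 level was 20.0 to 23.6 CPM in Trex1 iKO and 5.13 to 7.57 CPM in control samples, the summed Cd3 level 22.9 to 25.8 against 15.4 to 18.4 CPM, the 5 monocyte/macrophage gate genes 1855 to 2405 against 1572 to 1672 CPM, and 5 melanoma genes 12.97 to 17.8 against 3.14 to 10.05 CPM. Median UMIs per cell overlapped (13683 to 15405 and 12857 to 14391). The part of these measures in the result was not tested.

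With all monocyte/macrophage cells 43 genes were tested and 7 were lower in Trex1 iKO (5.43% of all genes tested were lower; 16.28% of the 43): H2ac11 (-1.45), H2ac22 (-1.44), H1f3 (-1.10), H1f2 (-0.88), H1f4 (-0.75), H3c6 (-0.69) and H1f0 (-0.48). Of these, 4 were also called in non-cycling cells. The count fell to 1 without control 2 and to 0 without control 4, Trex1 iKO 1 or Trex1 iKO 2. In these profiles Cd209a, the type 2 dendritic gate gene, was at 0.727 to 2.17 CPM in Trex1 iKO and 8.39 to 17.16 CPM in control samples, Cd4 at 0.529 to 0.723 against 0.824 to 1.92 CPM, Foxp3 at 0.397 to 0.826 against 0.975 to 1.44 CPM, and the summed Cd8a and Cd8b1 level at 19.7 to 24.2 against 5.13 to 8.41 CPM. The groups did not overlap in any of these, nor in the Cd3, monocyte/macrophage and melanoma sums, and their part in the result was not tested. Among cycling macrophages 0 of 22 genes were called (0.0802% of all genes tested), with 4 at an unadjusted p under 0.05 in edgeR and 0 calls in DESeq2. H1f2 differed there by 0.00 ± 0.26 and H1f5 by -0.82 ± 0.34.

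In cycling CD8 T cells 39 genes passed the filter; 5 were higher in Trex1 iKO (3.48% of all genes tested were higher) and 2 were lower (2.54%). H2ac24 was 1157, 1363, 879.8 and 1091 CPM in the Trex1 iKO samples and 470.3, 468.2, 610.2 and 594.4 CPM in control samples (log2 difference 1.11 ± 0.14, edgeR adjusted p = 0.000421). H2ac8 was 664.4, 786, 455.2 and 602.7 CPM against 306, 306.5, 270.6 and 472.9 CPM (0.95 ± 0.19, edgeR adjusted p = 0.00939). The genotypes did not overlap for H2ac24 and overlapped for H2ac8, where control 4 was above Trex1 iKO 3.

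The other 3 higher genes were low or moderate. H3c2 was 30.25, 32.65, 21.81 and 28.98 CPM against 19.09, 19.43, 16.98 and 20.24 CPM (0.71 ± 0.16, edgeR adjusted p = 0.0177), without overlap. H2ac4 was 159, 181.9, 123.6 and 152.6 CPM against 90.68, 94.52, 125.2 and 101.2 CPM (0.67 ± 0.14, adjusted p = 0.0127), with control 3 above Trex1 iKO 3. H2ac13 was 12.05, 15.48, 10.18 and 12.56 CPM against 7.42, 5.3, 6.37 and 0 CPM (1.19 ± 0.30, adjusted p = 0.0340), without overlap.

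Of the 2 lower genes, H2ac22 was 20.6, 26.49, 18.9 and 21.25 CPM against 44.28, 32.69, 38.2 and 49.69 CPM (-0.80 ± 0.16, edgeR adjusted p = 0.0114), without overlap. H2ac10 was 30.72, 37.46, 30.54 and 25.11 CPM against 49.58, 52.12, 55.18 and 34.96 CPM (-0.55 ± 0.15, adjusted p = 0.0435), with control 4 below Trex1 iKO 2. Thus 6 of the 7 called genes were H2A copies, 4 higher and 2 lower. Read assignment is uncertain for 5 of these 6: the share of unique 60-base words at the 3′ end was 0% for H2ac24, 0.83% for H2ac13, 31.12% for H2ac4, 20.33% for H2ac22 and 33.2% for H2ac10, against 81.33% for H2ac8.

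The count of 7 fell to 2 without control 1, to 3 without Trex1 iKO 1, to 4 without Trex1 iKO 2 and to 1 without both of these, and rose to 9 without Trex1 iKO 4. It was 4 with DESeq2 and 0 of 13 genes tested when each cell was thinned to 3000 UMIs. H2ac13 also lost its call without control 2 or control 3, and H2ac10 without control 2, control 3 or Trex1 iKO 3. H2ac24 was lost only when each cell was thinned to 3000 UMIs (adjusted p = 0.0834), and its log2 difference lay between 0.90 and 1.22 over 17 alternatives. Measures that moved with genotype in these cells without overlap were the Cd8a and Cd8b1 sum (1435 to 1802 CPM in Trex1 iKO, 1120 to 1357 CPM in control), the Cd3 sum (3097 to 3508 against 2383 to 2689 CPM), Ptprc (901.8 to 943.8 against 696.1 to 862.2 CPM), S100a8 plus S100a9 (63.1 to 78.2 against 156 to 870.2 CPM), monocyte/macrophage genes (21.3 to 36.4 against 12.9 to 17.7 CPM) and melanoma genes (4.74 to 16.2 against 1.77 to 3.68 CPM). Median UMIs per cell overlapped, and the part of these measures was not tested.

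**Figure D5:**
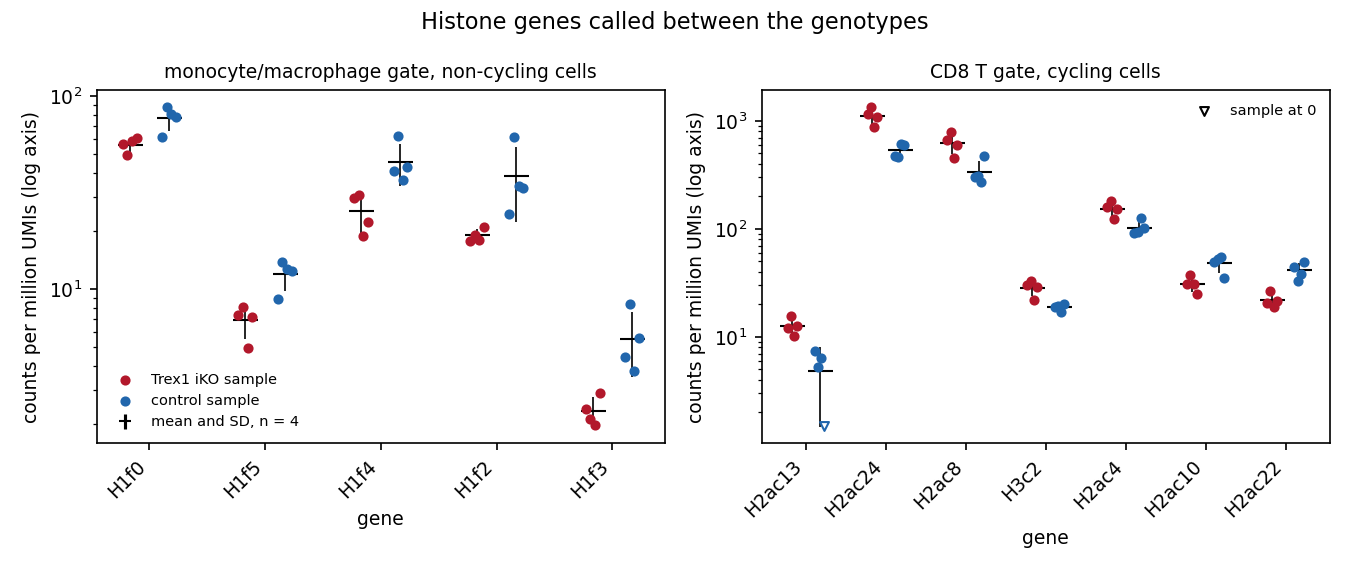
Level of the histone genes called between the genotypes (CPM, log axis), in non-cycling monocyte/macrophage cells (left) and cycling CD8 T cells (right); points are samples, bars the mean and SD of 4, and an open triangle is a sample at 0. The 4 Trex1 iKO samples lie below the 4 control samples for each of the 5 H1 genes, and above them for H2ac24.

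Over all CD8 T cells 1 of 42 genes was called, H2ac24 (1.70% of all genes tested were higher; 2.381% of the 42). DESeq2 called 3 genes, and edgeR called 3 without Trex1 iKO 3 and 4 without Trex1 iKO 4. H2ac24 was 842.1, 897.9, 354.4 and 442.0 CPM in Trex1 iKO and 287.4, 204.3, 239.8 and 219.8 CPM in control samples (1.45 ± 0.29, edgeR adjusted p = 0.0253), without overlap, and the call was lost without control 2, control 3, control 4 or Trex1 iKO 2 and with thinned cells. The Cd3 sum (3132 to 3783 against 2396 to 2950 CPM) and the melanoma sum (5.72 to 14.68 against 0.743 to 3.35 CPM) also did not overlap between the genotypes there. Trex1 iKO 1 and 2 also had the highest shares of cycling cells, given below, and the highest median UMIs per cell (17905 and 14751). Control 1 had a higher cycling share than Trex1 iKO 3 and 4 and a lower H2ac24 level. The part of these measures was not tested. No 60-base word at the 3′ end of H2ac24 was unique. In non-cycling CD8 T cells 0 of 13 genes were called (1.54% of all genes tested), with 1 at an unadjusted p under 0.05 in edgeR and 0 calls in DESeq2. There H2ac24 was 22.31, 26.25, 2.431 and 25.75 CPM against 12.56, 7.627, 8.563 and 3.941 CPM (1.26 ± 0.44, adjusted p = 0.1705), and Trex1 iKO 3 was the lowest of all 8 samples.

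No histone gene was called between the genotypes in the other gates by edgeR or DESeq2. The counts were 0 of 8 in conventional CD4 T cells (2.70% of all genes tested were called in either direction), 0 of 29 in Treg (2.00%), 0 of 2 in B cells (3.24%), 0 of 6 in neutrophils (2.48%), 0 of 13 in cDC1 (0.0281%) and 0 of 9 in mature dendritic cells (0.824%). At an unadjusted p under 0.05 edgeR gave 2, 1, 0, 2, 5 and 3 genes. With all kept cells of a sample summed, 0 of 58 were called (2.53%), 11 had an unadjusted p under 0.05, and DESeq2 called 2. NK, type 2 dendritic and plasmacytoid gates had too few samples for a test.

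Whether the genotype difference itself varied was tested by interaction terms. It did not pass for any histone gene between cycling and non-cycling cells, with 0 of 42 in CD8 T cells (0.222% of all genes tested; 5 unadjusted) and 0 of 47 in macrophages (0.00912%; 3 unadjusted), and DESeq2 called 0 in both. Between the CD8 T and the monocyte/macrophage gates, a comparison added after seeing the data, 0 of 57 passed with all cells (0.101%; 13 unadjusted, 2 in DESeq2) and 0 of 37 with non-cycling cells (0.297%; 6 unadjusted, 0 in DESeq2). For the linker histones in non-cycling cells this difference, CD8 T minus macrophage, was 1.43 ± 0.50 for H1f3 (edgeR adjusted p = 0.218), 0.96 ± 0.32 for H1f4 (0.203) and 0.89 ± 0.28 for H1f2 (0.192). The H1 difference in macrophages was therefore not shown to be particular to them.

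Some other histone-related genes did differ between the genotypes. In non-cycling macrophages Daxx, a chaperone for H3.3, was higher in Trex1 iKO (1.68), Macroh2a1 was higher (0.46), and Cenpa (-0.81), H2aj (-0.39) and H2az1 (-0.29) were lower. Of the processing list Lsm11 (-0.44) was lower and Lsm10 (0.27) higher, both parts of the small nuclear particle that processes histone messengers. Of all genes tested in these macrophages, 7.95% were higher and 6.65% lower. In cycling CD8 T cells Daxx (0.83) and Asf1b (0.60) were higher (3.48% of all genes tested), and no gene of the variant or processing lists was called. Daxx was also higher in conventional CD4 T cells (1.46, edgeR adjusted p = 0.0123) and neutrophils (1.74, edgeR adjusted p = 0.00793). It did not pass in mature dendritic cells (0.93, edgeR adjusted p = 0.193). These are single genes and not a result about the lists.

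In the CD8 T and monocyte/macrophage gates the share of cycling cells overlapped between the genotypes. Among CD8 T cells it was 56.81, 49.48, 22.62 and 23.85% in the Trex1 iKO samples and 40.14, 24.47, 16.45 and 18.37% in control samples, a difference of 13.33 percentage points with overlapping groups (exact two-sided permutation test, p = 0.2286, adjusted p = 0.5714 over 8 gates). In monocyte/macrophage cells it was 2.937, 3.083, 7.895 and 8.158% against 6.175, 5.651, 5.622 and 3.898%, also overlapping (exact permutation p = 1). No gate had an adjusted p below 0.4571. With 4 samples or fewer per genotype this test has few arrangements, and the adjustment covers 8 gates. A single gate could therefore not pass the threshold even with fully separated groups, so the test cannot decide whether the shares differ. The cycling cut is a fixed count. Median UMIs per CD8 T cell were 17905, 14751, 7609.5 and 8024.5 in Trex1 iKO samples and 11985, 9304, 7496 and 7504 in control samples. The part of depth in these shares was not tested.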

How the data were processed

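Cells came from 8 hashtagged samples in 2 pools. The deposited matrices hold raw UMI counts per gene and barcode, and the authors used Cell Ranger 7.1.0 with GRCm39, per the submitters' processing notes; how hashtags were assigned is not given in the sources used here. Barcodes with at least 300 genes and at most 10% mitochondrial UMIs were kept, and 438 doublets (Scrublet score above 0.25) were removed. Cells were gated by marker UMIs, and counts were summed per sample, gate and state where at least 20 cells were present. Sums were tested in edgeR 4.0.16 (R 4.3.3; TMM, filterByExpr, quasi-likelihood test, Benjamini-Hochberg over all genes tested, threshold 0.05), after a test on simulated data. Genotype fits had no block; contrasts within samples had the sample as block. Alternatives were DESeq2 1.42.0, no low-count filter, each sample left out, stricter gates, doublets kept, thinning to 3000 UMIs and other cycling thresholds. Up to 12 called histone genes per comparison with the largest changes were eligible to be named, with 9 always named and up to 4 per other list. The members and lists were chosen with earlier results of these data known. CPM covers counting at 3′ ends only, and genes are not ranked against each other by it. Cpsf3l was not analysed here.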

Additional observations from a re-analysis of the deposited data

Results flagged for a closer look

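In groups of 4 samples, a value was examined when its gap to the nearest other sample was too large a share of the group's range by Dixon's criterion. Of 82 groups, 7 met this, and chance flags about 1 in 20 groups. In cycling CD8 T cells, H1f0 was low in Trex1 iKO 3 (16 CPM; the others 28.01 to 29.66), H1f10 was high in control 1 (33.14 CPM; the others 19.43 to 20.24) and H1f5 was high in control 4 (1146 CPM; the others 832.3 to 871.0). In non-cycling CD8 T cells H2ac24 was low in Trex1 iKO 3 (2.431 CPM; the others 22.31 to 26.25). In cycling macrophages, H2bc4 was high in control 1 (76.24 CPM; the others 37.05 to 41.11), H3c3 was low in control 1 (28.59 CPM; the others 59.96 to 66.38) and H4c4 was high in Trex1 iKO 4 (108.1 CPM; the others 54.15 to 59.44).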

How the results depend on the processing

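Of 6339 alternative values for 474 results, 5912 kept their direction and side of the threshold, 265 lost a call, 77 gained one, 84 moved and 1 reversed: H2ac24 in non-cycling CD8 T cells against other gates was -0.04, not called, and 0.61 when cells were thinned. The cause of these changes was not tested. The counts in this section are given without the share of all genes called under the same setting. They show how far a count moved and cannot be set against a background. The number of histone genes tested can also change with the setting and is not given here. A lower count can thus come with fewer genes tested. Thinned cells were gated and called cycling anew, and cells under 3000 UMIs were left out, so the cells differ too. Without the low-count filter, histone genes called by gate with all cells were 57 in CD8 T, 51 in Treg, 17 in B and 15 in cDC1, and with non-cycling cells 20 in CD8 T, 18 in neutrophils and 15 in mature dendritic cells. By genotype they were 2 in CD8 T, 4 in conventional CD4 T, 4 in Treg, 1 in neutrophils, 4 in cDC1 and 3 in mature dendritic cells; interactions gave 1 (cycling, macrophages), 1 (gate, all cells) and 4 (gate, non-cycling). Thinned to 3000 UMIs, the gate counts with all cells were 4 in B, 3 in conventional CD4 T, 14 in CD8 T, 11 in mature dendritic, 13 in macrophages, 12 in neutrophils and 13 in Treg, with non-cycling cells 5 in B, 3 in mature dendritic, 4 in macrophages and 5 in neutrophils, and by genotype 0 in all and 0 in cycling CD8 T cells. DESeq2 gave genotype counts of 3 in CD8 T, 4 in cycling CD8 T, 9 in non-cycling macrophages and 2 with all cells summed, and 2 for the gate interaction. Leaving out Trex1 iKO 1 and 2 left 1 call in cycling CD8 T cells. Gates raised by 1 UMI gave 2 in non-cycling Treg.

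To look for pairing, the mean of each genotype was subtracted from each gene's log2 level, and these deviations were correlated between the genotypes. Deviations of same-numbered samples correlated at 0.0435 to 0.637 in CD8 T cells, at -0.083 to 0.326 in macrophages and at 0.070 to 0.671 with all cells summed. Numbers 1 and 4 correlated best with their own number in all 3, and numbers 2 and 3 in none, so pairing was not established; this is a hint from the data, not the design. With the number as replicate block the genotype count was 9 in CD8 T, 1 in neutrophils, 1 in mature dendritic cells and 5 with all cells summed. Without the sample block, macrophages gave 22 for cycling and 15 for the S side, and non-cycling Treg 2.

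With single samples left out, counts by gate ranged from 3 to 10 in conventional CD4 T (3 without Trex1 iKO 4) and 3 to 10 in cDC1 (3 without Trex1 iKO 1), and with non-cycling cells from 5 to 8 in CD8 T, 3 to 10 in mature dendritic and 2 to 4 in Treg. Genotype counts ranged from 0 to 4 in CD8 T, 2 to 9 in cycling and 0 to 1 in non-cycling CD8 T, 0 to 9 in macrophages, 2 to 6 in non-cycling macrophages, 0 to 3 in conventional CD4 T, 0 to 1 in Treg, neutrophils and cDC1, and 0 to 2 in mature dendritic cells; the gate interaction in non-cycling cells ranged from 0 to 1.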
